A study of Danio rerio with 4 samples.

Results

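The exocrine pancreas digestive enzyme genes are 10 zebrafish genes chosen by name, and all 10 were found among the 19143 genes of the authors' deposited table, on 1 row each. They are the trypsinogen genes *prss1*, *prss59.1* and *prss59.2*, the chymotrypsinogen gene *ctrb1*, the elastase genes *ela2*, *ela2l* and *ela3l*, the carboxypeptidase gene *cpa5*, the lipase gene *cel.2* and the amylase gene *amy2a*. RNA-seq was performed on whole larvae at 4 dpf, in 2 pools homozygous for the *st73* allele of *nlrc3l*, a NOD-like receptor gene, and in 2 pools of their siblings, which were a mix of heterozygous and wild-type animals. In each of these groups, mutants and siblings, 1 pool held 10 larvae and the other 12. Before pooling, the mutants had been picked for missing microglia and the siblings for normal microglia by the dye neutral red, which the study gave to live larvae in water that also held PTU, a blocker of pigment formation. The labels give no other treatment. The values below are the authors' means of normalized counts over all 4 libraries, so that mutant and sibling pools stand in a single number for each gene. The authors' own comparison of the genotypes was not used, values per library were not analysed here, and no difference between mutants and siblings is therefore reported.

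Acinar cells of the exocrine pancreas make digestive enzymes, most of the proteases as inactive precursors (zymogens), and secrete them through the pancreatic duct into the gut. There enteropeptidase, an enzyme of the intestinal surface, cleaves trypsinogen to trypsin, and trypsin in turn activates the other zymogens. In zebrafish larvae the exocrine pancreas differentiates before feeding starts, and trypsin and elastase transcripts are common markers of its acinar cells. In RNA of whole larvae, the number of acinar cells and the amount of enzyme mRNA per cell cannot be told apart.

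Of the 10 genes chosen 8 encode protease zymogens, and the trypsinogens, chymotrypsinogen and carboxypeptidase among them had the most reads. The 10 means summed to 8351 normalized counts, or 0.0958% of the 8721330 normalized counts summed over the table. The lowest mean in the table was 9.18, so genes with lower means are absent from it. Wherever all genes are named below, the genes of this table are meant, and ranks and medians are among them only. A normalized count is a number of read pairs divided by the size factor of its library. It grows with the length of a transcript as well as with its abundance, and transcript lengths were not used here, so the order of the values is one of read counts and not of mRNA molecules. The means also have no error, since 1 number per gene carries no spread between pools.

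The trypsinogens, precursors of the protease that cuts after lysine and arginine and activates the other zymogens, held the largest part of the counts. *prss59.2* (ENSDARG00000073742) had a mean of 2196 normalized counts and *prss59.1* (ENSDARG00000079274) had 942. The third gene, *prss1* (ENSDARG00000042993), had 1683. The 3 genes together came to 4822 normalized counts, or 57.7% of the sum over all 10 enzyme genes. Each had more counts than at least 92.58% of all genes in the table.

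Chymotrypsinogen is the precursor of chymotrypsin, which cuts after large hydrophobic residues. Its gene *ctrb1* (ENSDARG00000090428) had a mean of 1996 normalized counts, between *prss59.2* and *prss1*, and 96.85% of all genes had fewer. Carboxypeptidase A removes residues from the C-terminal end of peptides. For *cpa5* (ENSDARG00000021339) the mean was 1051 normalized counts, above 93.4% of all genes. These 2 genes held 23.9% and 12.6% of the counts of the enzyme genes.

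The elastases, which are also serine proteases, had far fewer reads. The mean was 137 normalized counts for *ela3l* (ENSDARG00000007276), 72.0 for *ela2* (ENSDARG00000056744) and 68.2 for *ela2l* (ENSDARG00000056765). RefSeq lists *ctrc*, the usual symbol of chymotrypsin C, among the synonyms of *ela2l*, so the class of this gene is that of its symbol only. Together the elastases summed to 278 normalized counts, or 3.32% of the counts of the enzyme genes. The median of all genes was 126 normalized counts, and of the elastase genes *ela3l* lay above it and the other two below it.

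The members for fat and starch digestion had low counts as well. *cel.2* (ENSDARG00000029822), for carboxyl ester lipase, which bile salts activate, had a mean of 130 normalized counts. *amy2a* (ENSDARG00000013856), for the alpha-amylase that splits starch, had 73.7. *cel.2* held 1.56% of the enzyme counts and *amy2a* 0.882%, against 3.32% for the 3 elastases. This order turns round when *cel.1*, a second lipase gene that is no member, is added to *cel.2*, since both lipase genes then sum to 801 normalized counts, against 278 for the elastases.

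**Figure D1:**
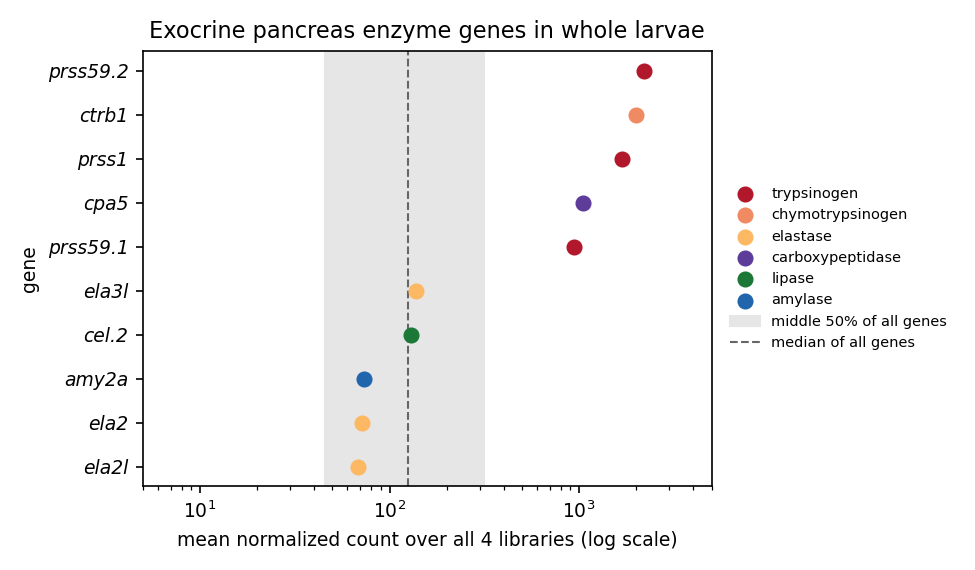
Mean normalized count of each enzyme gene over all 4 libraries, on a log axis, with 1 point per gene coloured by enzyme class; the grey band is the middle 50% of all 19143 genes, from 45.5 to 317, and the dashed line their median of 126. A group of 5 genes lies between 942 and 2196, right of the band, and the other 5 lie between 68.2 and 137, inside it.

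The 10 genes thus fell into a pair of ranges with no member between them. The gap holds for these 10 genes only. Genes of the further exocrine list given below lay inside it, among them *ctrl* with 681, *cel.1* with 670 and *zgc:112160* with 475 normalized counts. The 5 genes of the higher range, *prss59.2*, *ctrb1*, *prss1*, *cpa5* and *prss59.1*, held 94.2% of the enzyme counts. All of these 5 lay above 736 normalized counts, the limit of the top decile of all genes. The 5 genes of the lower range, *ela3l*, *cel.2*, *amy2a*, *ela2* and *ela2l*, summed to 482 normalized counts and lay within the middle 50% of all genes. Against the table's median, 7 members were above and 3 below. Whether transcript length has a part in this split was not tested.

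**Figure D2:**
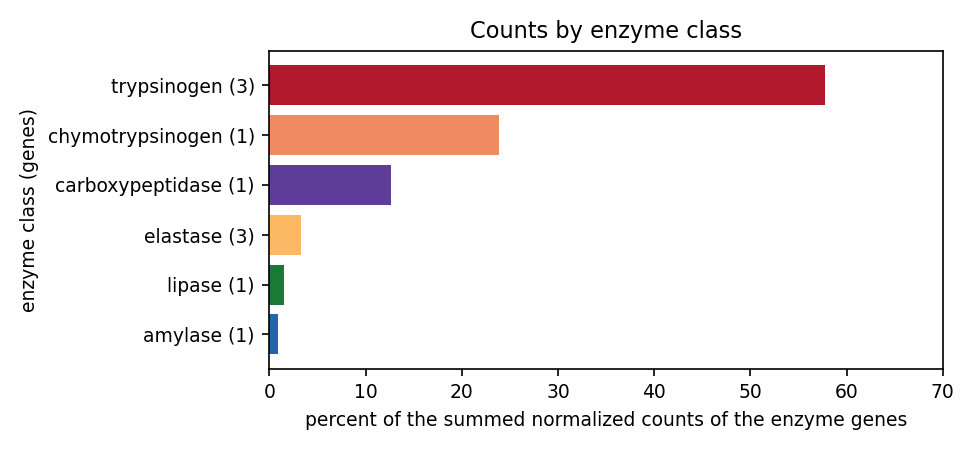
Percent of the summed normalized counts of the 10 enzyme genes that each enzyme class held, with 1 bar per class and the number of genes in brackets. Trypsinogens held 57.7%, chymotrypsinogen 23.9% and carboxypeptidase 12.6%, against 3.32% for elastases, 1.56% for the lipase and 0.882% for the amylase. The shares depend on which genes of each class are among the 10. Genes outside the 10, such as *ctrl* with 681 and *cel.1* with 670 normalized counts, are not counted.

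Several enzyme genes have a related gene beside them. In the RefSeq annotation of assembly GRCz12tu, which was used only for names and for which genes neighbour each other, *prss59.1* and *prss59.2* stand next to each other with no protein-coding gene between them, and so do *ela2* and *ela2l*. The third trypsinogen gene, *prss1*, is on the same chromosome as the *prss59* pair, with 42 protein-coding genes between it and *prss59.1*. Of the 10 members, at least 7 stand directly beside another member or another gene of their enzyme class. The unnamed gene directly beside *amy2a* was not assigned to a class. *cel.2*, with a mean of 130 normalized counts, stands beside *cel.1*, with 670. *cpa5*, with 1051 normalized counts, stands beside *cpa1*, with 15.5. *ctrb1*, with 1996 normalized counts, stands beside a gene that RefSeq calls *ctrb.2* and the table *zgc:136461*, with 25.4. Next on the same side is *ctrb.3*, named *zgc:112160* in the table, with 475 normalized counts.

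Such neighbours can be close copies, and how reads that fit more than 1 copy were assigned is not given in the sources used here. The value of a single copy is therefore uncertain, and whether the sum over the copies is less so is not known. That sum was 3138 normalized counts for *prss59.1* and *prss59.2*, 140 for *ela2* and *ela2l*, and 801 for *cel.1* and *cel.2*. The 2 chymotrypsinogen neighbours together with *ctrb1* came to 2496 normalized counts, of which *ctrb1* held 80.0%. How similar the copies are in sequence was not measured here.

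A list of further genes of the exocrine pancreas and of digestion was read too. Of 27 symbols 16 had a row, and each of these 16 genes had fewer counts than the 5 highest enzyme genes. Of the other 11 one, *try*, is a RefSeq synonym of *prss1* and so no further gene. The rest may be present under other names or absent for low counts, so their values are not known. The 16 genes had a median of 98.0 normalized counts, and 7 of them lay above the median of all genes. Without *tmprss15*, a gene of the intestine, and *cpb2*, a liver gene in mammals, which were left out after the values had been seen, the median of the other 14 was 136. The 5 with the most counts were *ctrl*, a chymotrypsin-like protease, with 681 normalized counts, *cel.1* with 670, *zgc:112160* with 475, *pdia2*, a pancreatic protein disulfide isomerase, with 365, and *cpb1*, for carboxypeptidase B, with 328.

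Of the transcription factor genes of acinar cells, *rbpjl* lay above the median of all genes in counts, and *ptf1a* and *nr5a2* lay below it. *ptf1a*, which is needed for exocrine pancreas development and is also expressed in the hindbrain and retina, had a mean of 23.2 normalized counts. *rbpjl*, which in mouse acinar cells encodes the partner of Ptf1a, had 155, and *nr5a2*, a nuclear receptor gene of acinar cells and other endoderm, had 79.8. *bhlha15* had no row in the table under that symbol. *tmprss15*, which encodes enteropeptidase, had 13.9 normalized counts, close to the lowest mean of the table, 9.18.

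The enzyme genes can be set beside genes of neighbouring organs in the same larvae. Islet genes, of endocrine cells in the same organ, ran from *mnx1* with 33.2 normalized counts to *neurod1*, which neurons also express, with 1277, and the insulin gene *ins* had 146. The genes *neurod1*, *isl1* and *pax6b*, all also expressed in neurons, made up 73.0% of the islet sum. Pancreatic duct genes ran from *cftr* with 53.1 to *sox9b* with 272. Intestine genes ran from *cdx1b* with 120 to *vil1* with 2306, and liver genes from *fabp10a* with 833 to *apoa1b* with 40816. The 10 enzyme genes held 0.0958% of all normalized counts, against 0.656% for the 6 liver genes, 0.0840% for the 6 intestine genes, 0.0379% for the 16 genes of the other exocrine list, 0.0364% for the 10 islet genes and 0.00518% for the 3 duct genes. Without *neurod1*, *isl1* and *pax6b*, the islet share was 0.00983%. A single gene, *apoa1b*, held 0.468% of all normalized counts within the liver share, and *sox9b* 0.00312% within the duct share. The other islet genes and the liver, intestine and duct lists were not screened for expression in other tissues, neurons included. These sums depend on which genes each list holds and on their lengths, and were not tested. The highest mean of the whole table was that of *mt-co1*, with 143382 normalized counts, and *nlrc3l* itself had 42.8.

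**Figure D3:**
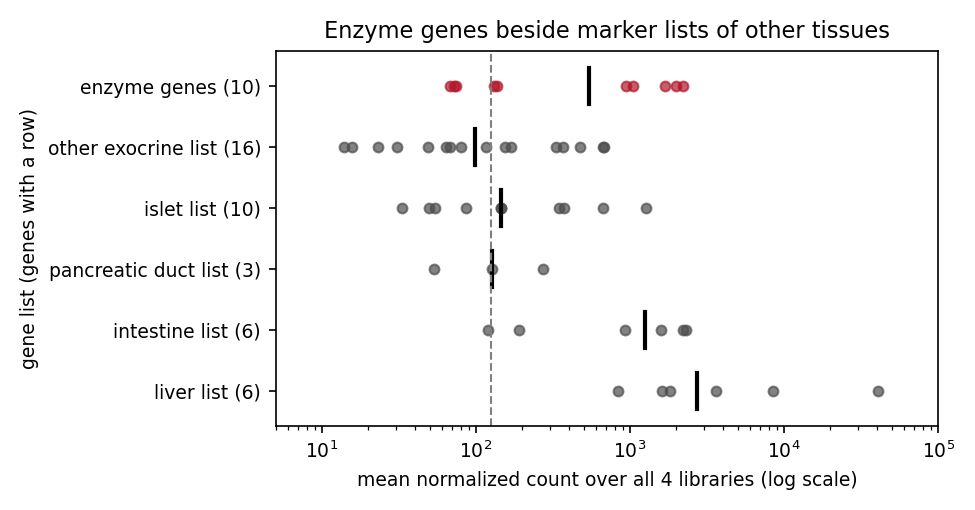
Mean normalized count over all 4 libraries, on a log axis, with 1 point per gene, for the 10 enzyme genes and for lists of other exocrine, islet, pancreatic duct, intestine and liver genes; black bars are list medians and the dashed line is the median of all genes, 126. The 10 enzyme genes split into a higher and a lower group, and the 6 liver genes all lie at or above 833. The other exocrine genes reach 681, and some of them lie between these groups.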

How the data were processed

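Paired-end RNA-seq reads of 2 pools of *nlrc3l* mutants and 2 pools of siblings were trimmed by the authors with Trimmomatic and aligned with HISAT2. The submitters' processing notes name featureCounts of Subread 1.5.2, DESeq2, R 3.3.1 and the build GRCz10. The column deposited by the authors as baseMean is a signal, in which counts were divided by size factors and then averaged across the 4 libraries. Depth per library and spread between pools cannot be had from it. The other columns hold the authors' own comparison of the genotypes (log2 fold change, its standard error, statistic and p-values), and a second table holds the genes that this comparison selected. Neither was used.

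From baseMean the sum, the rank and the percent of genes with a lower value were computed for each gene, with no test. The steps were checked on a simulated table. Neighbours were taken from the RefSeq annotation of GRCz12tu, as up to 3 protein-coding genes on each side, and 89.2% of the table's genes matched a RefSeq symbol or synonym with a protein. Counts per coding length, protein identity and promoter motifs had been planned and are not reported, since no transcript, protein or promoter sequences were used here.

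The genes named are all members, *nlrc3l*, the gene with the highest mean, the 5 highest of the exocrine list and its regulators, and the highest and lowest of each other list. *ins*, *isl1*, *pax6b*, *tmprss15*, *cpb2*, *cpa1*, *zgc:136461* and *try* were named after their values or names had been seen. The members and lists were chosen with earlier results of these data known. Python 3.11.15, pandas 2.3.3, numpy 2.4.6 and matplotlib 3.10.9 were used.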

Additional observations from a re-analysis of the deposited data

How the results depend on the processing

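With only genes whose symbol has a RefSeq protein in the total, the enzyme genes held 0.105% of the normalized counts, against 0.0958% over all genes. Keeping the highest entry of each symbol gave 0.0963%. Ranked among the 13955 genes with a mean of 50 or more, 5 members instead of 7 lay above the median, which was then 204, and *ela3l* and *cel.2* were the members that moved below it. The percent of genes with fewer counts than a member fell by 1.05 to 24.4 percentage points in that ranking, which removes low genes by construction. Leaving *tmprss15* and *cpb2* out of the exocrine list gave a median of 136 normalized counts, against 98.0 for the whole list. *ptf1a* and *nr5a2*, which other tissues also express, were kept in it. Leaving *neurod1*, *isl1* and *pax6b* out of the islet list gave a median of 85.9, against 146. Both choices were made after seeing the data. The islet genes that were kept were not screened for expression in neurons or other tissues. Alternatives for counts per coding length, protein identity and promoter motifs were not run. No paired analysis was possible because the values are means over all libraries, and for the same reason no pool could be left out.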
